A study of Saccharomyces cerevisiae with 4 samples.

Results

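The cell wall synthesis and integrity genes of budding yeast (Saccharomyces cerevisiae) were examined as a group of 39 genes, picked by standard name from 6459 rows of the deposited tables. All 39 names matched a row and passed the filter on low counts. Of these, 14 are reported targets of the kinase Slt2 and its transcription factor Rlm1, and the other 25 encode wall enzymes, wall proteins, sensors and signalling proteins. The split follows general knowledge of the pathway, but the members and the split were chosen with earlier results of these data known.

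The yeast wall is a net of beta-glucan and chitin covered by mannoproteins. Membrane sensors (Wsc and Mid2 proteins) report wall damage to the GTPase Rho1 through exchange factors such as Rom2, and Rho1 acts on glucan synthase and on a kinase cascade that ends in Slt2. Active Slt2 switches on Rlm1, which drives genes for wall repair, SLT2 included. Other wall genes follow the cell cycle through the factor SBF (Swi4 and Swi6).

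RNA was sequenced from strain ESS1-AID, of the BY4741 background, treated with 2 mM indole-3-acetic acid (IAA, an auxin) or with DMSO, the solvent control, for 3 h at mid-log phase in YPD at 30°C. In this strain Ess1, a prolyl isomerase of the RNA polymerase II tail, is fused to a degron that auxin turns on to destroy the protein (label ESS1AID 71-114-6Flag::hphB). The IAA and DMSO libraries share this allele and the auxin receptor cassette driven by the ADH1 promoter (label HIS3::ADH1-OsTIR19Myc). Each treatment had 2 libraries, called biological replicates by the submitters. A strain without the degron was not analysed here, so loss of Ess1 and other effects of IAA cannot be told apart.

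Libraries held 33589128 and 33625232 estimated counts in IAA, and 26046702 and 27609311 in DMSO. LEU2, URA3 and MET17, deleted in BY4741, were at 0 in all 4 libraries. Of the genes that mark the MATa mating type of this strain, STE2 lay between 361 and 395 CPM (counts scaled by library size and TMM factor) and BAR1 between 103 and 155 CPM, while AGA2 reached at most 7.07 CPM and MFA1 and MFA2 stayed under 1 CPM in every library. MATalpha genes lay below STE2 and BAR1, at most at 46.3 CPM for SAG1 and at most 6.12 CPM for STE3, MF(ALPHA)1 and MF(ALPHA)2. ESS1 mRNA had 6.70 and 7.92 CPM in IAA, against 5.15 and 5.31 CPM in DMSO, and it does not report on the protein.

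The wall genes showed a mixed response in IAA, in which a subset of the Slt2-Rlm1 targets made the largest rises. Of the 39 genes, 16 rose and 6 fell at a Benjamini-Hochberg adjusted p under 0.05 (edgeR quasi-likelihood test over 5799 genes), against a background of 28.7% of all tested genes higher and 29.6% lower. These counts are 41.0% and 15.4% of the wall genes, and 17 genes did not pass. Their median log2 fold change was 0.031, near the median of -0.0036 over all tested genes. Counting either direction, the background was 58.3%. Scaling by library size in place of TMM shifted the all-gene median log2 value by -0.10 and gave 12 wall genes higher and 10 lower, against a background of 19.5% and 43.1%. Upper quartile scaling gave 19 higher and 5 lower, against a background of 37.6% and 21.3%. Without IAA replicate 2 the wall gene median log2 fold change was 0.017, and without IAA replicate 1 it was 0.085. In bulk RNA, fewer cells that express a gene and less RNA per cell cannot be told apart.

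Among the 14 Slt2-Rlm1 targets 8 rose (57.1%) and 1 fell (7.14%), and among the other 25 genes 8 rose (32.0%) and 5 fell (20.0%). The background was 28.7% of all tested genes higher and 29.6% lower, so the share of the other genes that rose was near it. Median log2 fold changes were 0.19 for the targets and 0.030 for the other genes. By size, 5 targets rose at least 1.5-fold, against 0 of the other 25 genes and 6.88% of all tested genes. No wall gene fell that far, against a background of 2.76%. The difference between the lists was not tested. Because the lists were chosen with earlier results of these data known, their contrast is a description only. With library size scaling 6 targets rose and 3 fell, and 6 of the other genes rose and 7 fell. The background under that scaling was 19.5% higher and 43.1% lower. With RLM1 and YPS1 counted as targets, 9 of 16 rose and 1 fell under TMM scaling, against a background of 28.7% and 29.6%. Both IAA libraries lay above both DMSO libraries for 18 of the 39 genes and below both for 7, against a background of 40.2% and 41.3%.

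**Figure D1:**
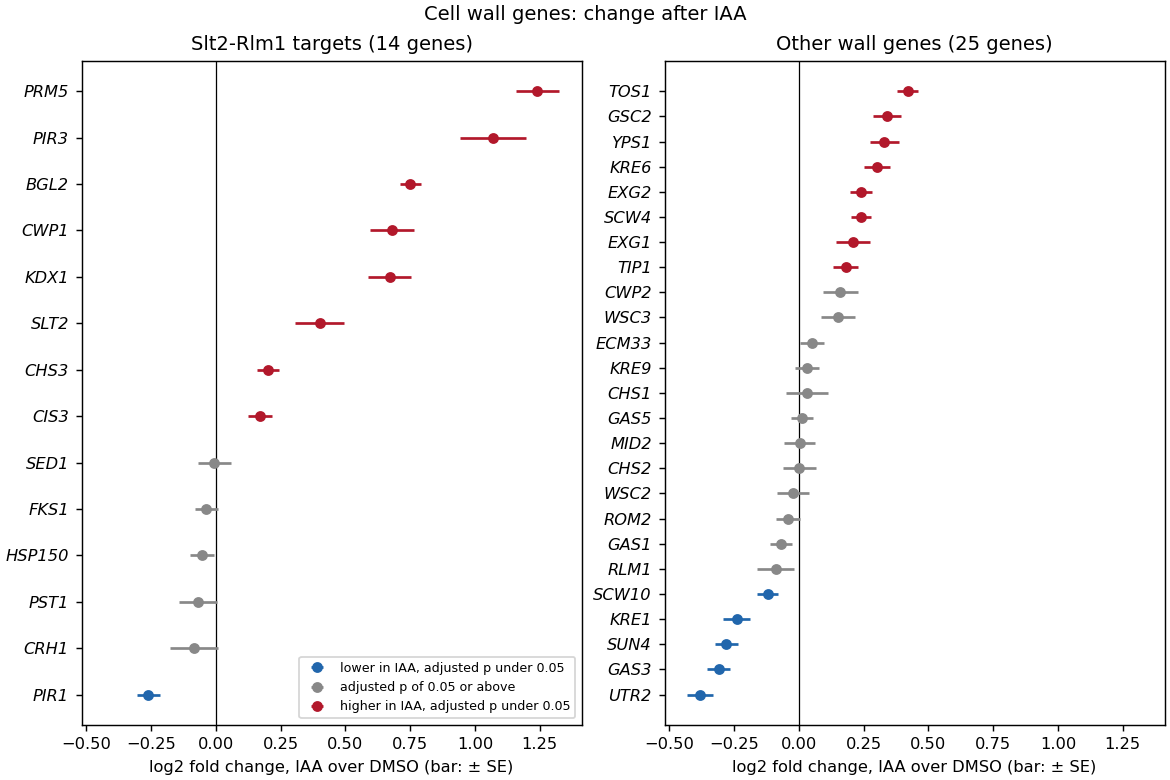
Log2 fold change of IAA over DMSO for the 14 Slt2-Rlm1 targets (left) and the 25 other wall genes (right), with bars of 1 standard error from edgeR and colour by call at an adjusted p under 0.05. Targets reach 1.24 for PRM5, and the highest of the other genes is TOS1 at 0.42.

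**Figure D2:**
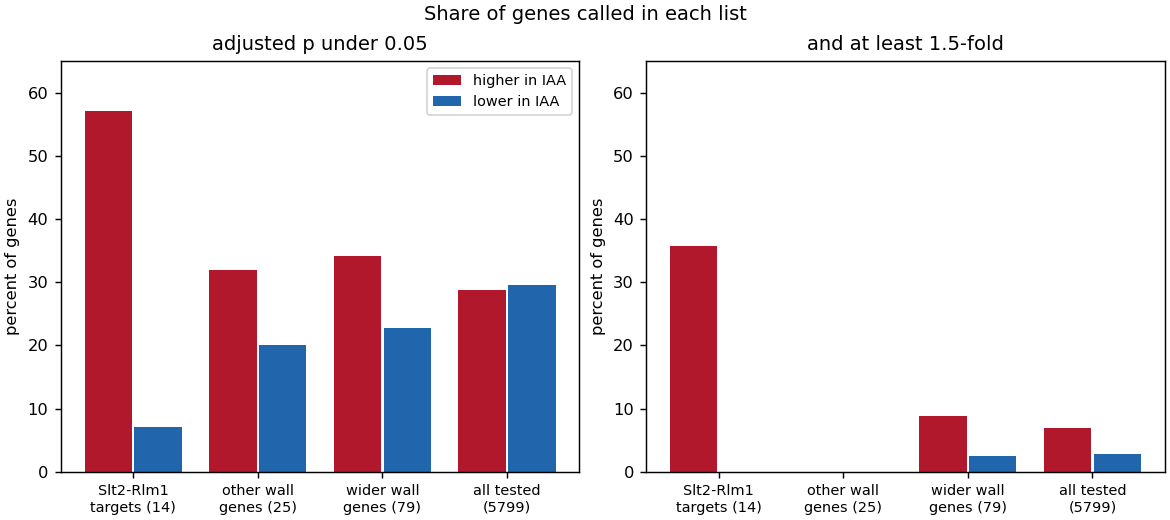
Percent of genes higher (red) or lower (blue) in IAA at an adjusted p under 0.05 (left), and with a fold change of at least 1.5 as well (right), in each list and in all tested genes. At least 1.5-fold rises make up 35.7% of the targets and 6.88% of all tested genes.

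PRM5, which encodes a membrane protein and is widely used as a reporter of the Slt2 pathway, made the largest rise. It had 49.5 and 56.6 CPM in IAA, against 23.5 and 21.5 CPM in DMSO. The groups were far apart and PRM5 rose by 1.24 on the log2 scale (SE 0.0833, edgeR adjusted p = 2.41e-05), or 2.36-fold. PRM5 is also known as a pheromone-regulated gene. Its promoter (R64, chrIX:141520-141819, minus strand, 250 bases before to 50 after the annotated coding start) is shown because of its motifs. It carries the pheromone-type motif TGAAACA, in capitals, 246 bases before the start, as do 7.50% of all genes in this window. It holds no exact Rlm1 core, which is CTA and TAG with any 4 letters between. The stretch ctaaaaataa differs from that core only in its last letter, and such near matches were not searched for.
PRM5: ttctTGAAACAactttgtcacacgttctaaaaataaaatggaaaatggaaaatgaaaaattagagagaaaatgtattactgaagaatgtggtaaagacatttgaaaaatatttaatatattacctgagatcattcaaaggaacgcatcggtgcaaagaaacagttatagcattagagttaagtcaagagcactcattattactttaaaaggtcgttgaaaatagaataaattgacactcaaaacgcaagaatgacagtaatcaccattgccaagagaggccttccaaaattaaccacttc

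The PIR genes encode wall proteins with internal repeats that are linked directly to beta-glucan, and their members moved in different directions. PIR3 had 6.67 and 7.21 CPM in IAA, against 3.37 and 3.25 CPM in DMSO. It rose 2.10-fold (log2 fold change 1.07, SE 0.128, edgeR adjusted p = 2.39e-04) and had the lowest level of all 39 genes in both groups. Its neighbour PIR1 had 399 and 420.4 CPM in IAA, against 493 and 488 CPM in DMSO. PIR1 was the sole target that fell, by 0.26 on the log2 scale (SE 0.0436, edgeR adjusted p = 0.00126), and its groups did not overlap either. CIS3 had 499 and 532 CPM in IAA, against 449.7 and 463 CPM in DMSO, a small rise (log2 fold change 0.17, SE 0.0467, edgeR adjusted p = 0.0119). CIS3 lost its call with library size scaling (adjusted p = 0.237), and also when DMSO replicate 1 was left out (adjusted p = 0.106). HSP150 had 1772 and 1816 CPM in IAA, against 1803 and 1919 CPM in DMSO, and the groups overlapped (log2 fold change -0.053, edgeR adjusted p = 0.339). With library size scaling HSP150 was called lower (log2 fold change -0.16, edgeR adjusted p = 0.0152). Limma on log2(FPKM + 1) also called it lower (log2 fold change -0.14, adjusted p = 0.0463).

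PIR1 and PIR3 lie head to head on chromosome XI, with 1581 bases between their coding starts. Their promoters are shown because this divergent pair changed in opposite directions. The windows are chrXI:144151-144450, plus strand, for PIR3 and chrXI:142770-143069, minus strand, for PIR1. Capitals mark the stress element AGGGG on the opposite strand (printed as CCCCT), 23 bases before the PIR1 start, and the PIR3 window holds none of the motifs searched.
PIR3: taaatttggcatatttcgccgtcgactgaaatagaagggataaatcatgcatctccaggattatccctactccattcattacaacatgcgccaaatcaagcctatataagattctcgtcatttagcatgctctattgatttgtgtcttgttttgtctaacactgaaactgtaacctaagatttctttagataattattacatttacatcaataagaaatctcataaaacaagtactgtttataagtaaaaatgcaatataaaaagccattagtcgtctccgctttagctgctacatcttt
PIR1: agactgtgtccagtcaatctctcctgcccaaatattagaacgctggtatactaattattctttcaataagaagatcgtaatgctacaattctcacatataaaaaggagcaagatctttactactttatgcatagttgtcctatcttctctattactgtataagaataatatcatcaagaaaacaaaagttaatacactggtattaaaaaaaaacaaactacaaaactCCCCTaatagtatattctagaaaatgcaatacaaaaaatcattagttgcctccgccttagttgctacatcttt

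BGL2, an endo-beta-glucanase and one of the most abundant wall enzymes, had 784 and 778 CPM in IAA, against 463 and 468 CPM in DMSO. Replicates were within a few percent of each other and the groups lay far apart, with a rise of 1.68-fold (log2 fold change 0.75, SE 0.0396, edgeR adjusted p = 1.09e-05). CWP1, a mannoprotein of the wall, had 55.1 and 65.6 CPM in IAA, against 38.4 and 37.0 CPM in DMSO. It rose 1.60-fold (log2 fold change 0.68, SE 0.0843, edgeR adjusted p = 2.82e-04), and IAA replicate 2 was the higher of the IAA libraries. KDX1, a kinase-like relative of Slt2 also known as MLP1, had 24.1 and 21.2 CPM in IAA, against 14.3 and 14.1 CPM in DMSO. KDX1 rose 1.59-fold (log2 fold change 0.67, SE 0.0824, edgeR adjusted p = 2.66e-04), here with IAA replicate 1 the higher.

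SLT2, which encodes the kinase at the end of the cascade, had 116 and 146 CPM in IAA, against 96.5 and 102 CPM in DMSO. The groups did not overlap, but the IAA libraries differed from each other by 26.3%. SLT2 rose 1.32-fold (log2 fold change 0.40, SE 0.0959, edgeR adjusted p = 0.00763), and limma on log2(FPKM + 1) did not call it (log2 fold change 0.29, adjusted p = 0.0816). RLM1, the gene of the transcription factor, had 149 and 175 CPM in IAA, against 169 and 175 CPM in DMSO, and the groups overlapped (edgeR adjusted p = 0.311). CHS3, the catalytic subunit that makes most wall chitin, had 159.6 and 162 CPM in IAA, against 140.2 and 139 CPM in DMSO. CHS3 rose 1.15-fold (log2 fold change 0.20, SE 0.0429, edgeR adjusted p = 0.00386), a call that was lost with library size scaling (adjusted p = 0.0819).

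The remaining targets overlapped between the groups. SED1, a stress-induced wall protein anchored by glycosylphosphatidylinositol (GPI) and the most abundant transcript of the set, had 2876 and 3278 CPM in IAA, against 2994 and 3183 CPM in DMSO (log2 fold change -0.0053, SE 0.0637, edgeR adjusted p = 0.950). FKS1, the main catalytic subunit of glucan synthase, had 1665 and 1778 CPM in IAA, against 1753 and 1781 CPM in DMSO (log2 fold change -0.037, SE 0.0450, edgeR adjusted p = 0.499). With library size scaling FKS1 was called lower (log2 fold change -0.14, edgeR adjusted p = 0.0264). PST1, a GPI protein induced by wall damage, had 218 and 258 CPM in IAA, against 244 and 255 CPM in DMSO (edgeR adjusted p = 0.449). For these genes the difference was within the spread of the libraries. CRH1, a transglycosylase that joins chitin to glucan, had 321 and 406 CPM in IAA, against 384 and 387 CPM in DMSO (edgeR adjusted p = 0.448). For PST1, CRH1 and RLM1 the IAA replicates lay on either side of, or level with, the DMSO libraries. Without IAA replicate 2 the fits called all 3 lower, with log2 fold changes of -0.19 (adjusted p = 0.00431), -0.26 (adjusted p = 3.73e-04) and -0.21 (adjusted p = 0.00342). Without IAA replicate 1 none of them was called.

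**Figure D3:**
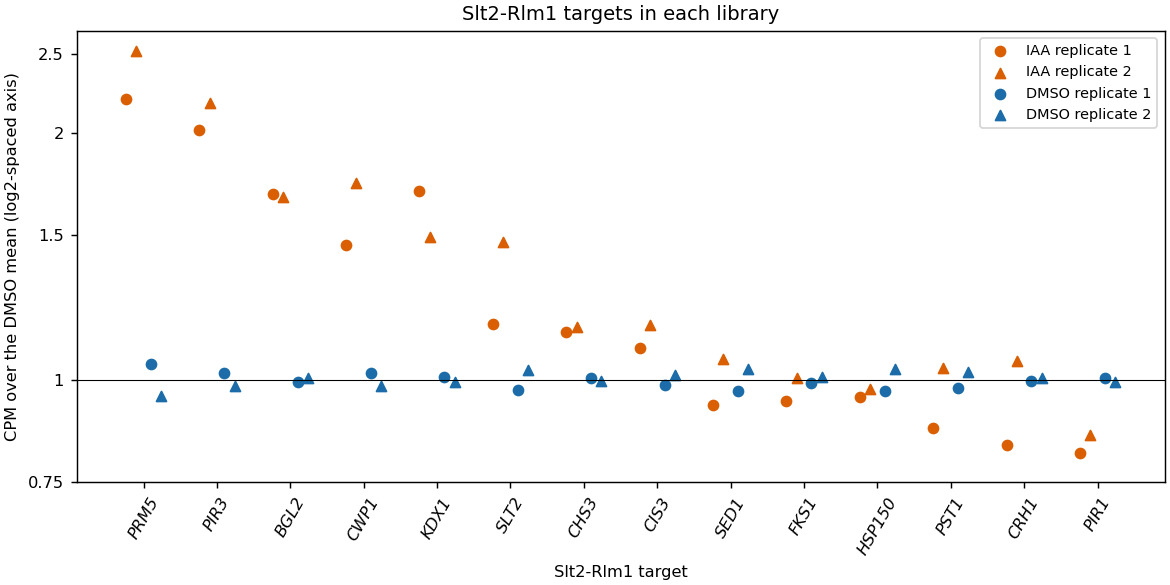
CPM of the 14 Slt2-Rlm1 targets in each library divided by the mean of the DMSO libraries, on a log2-spaced axis, with circles for replicate 1 and triangles for replicate 2. The IAA libraries (orange) stand above both DMSO libraries (blue) for 8 targets (57.1%), below both for PIR1 (7.14%), and overlap them for 5. Of all tested genes, 40.2% stood above both in the same way and 41.3% below both.

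The letters of an Rlm1 site stood before wall genes that rose, wall genes that did not pass and 1 that fell. The Rlm1 core (CTA and TAG with any 4 letters between) becomes the stricter Rlm1 consensus where the middle letters are all A or T. Over the window of 250 bases before to 50 after the start, the Rlm1 core occurred on either strand in 4 of the 39 wall genes (10.3%), against 5.56% of 6002 nuclear protein-coding genes. Over 500 bases before the start, a window chosen after the values were seen, it occurred in 11 wall genes (28.2%) and in 9.26% of all genes. Of these 11 genes 4 rose, 6 did not pass and SUN4 fell, with the core 87 bases before its start. The stricter Rlm1 consensus occurred there in 8 wall genes (20.5%), 6 of them targets, and in 1.82% of all genes. Of those 8 genes PIR3, CWP1 and BGL2 rose, 0 fell, and HSP150, RLM1, GAS5, SED1 and PST1 did not pass the test. The sites are shown because nearly the same letters stand before genes with different outcomes, with the motif in capitals and 10 bases on each side, on the strand of the gene.
PIR3: gattagcaaaCTAATTATAGatcaaaggcc
HSP150: acattttgagCTAAATTTAGattttggtca
CWP1: tacgtcataaCTAAAAATAGcgttagccac
RLM1: gagatgaaagCTAATAATAGaaacagctcg
BGL2: atatgcagttCTATTTTTAGtaaaagaaac
GAS5: tttgcttataCTATAAATAGgaaggtccct
SED1: gcatatatcgCTAAAATTAGccatcagaac
PST1: ttacgagtctCTAAAAATAGcgtaggcaca
Their positions in R64 were PIR3 at chrXI:144111-144140 (+ strand), HSP150 at chrX:120216-120245 (+ strand), CWP1 at chrXI:260736-260765 (+ strand), RLM1 at chrXVI:381439-381468 (- strand), BGL2 at chrVII:1058924-1058953 (- strand), GAS5 at chrXV:268054-268083 (+ strand), SED1 at chrIV:600303-600332 (+ strand), PST1 at chrIV:563212-563241 (+ strand). None overlapped a match to the other motifs searched.

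The promoters of BGL2 (chrVII:1058675-1058974, minus strand) and HSP150 (chrX:120199-120498, plus strand) make this contrast in full length. The Rlm1 consensus starts 219 bases before the start in BGL2, which rose, and 223 bases before it in HSP150, which did not pass in the main fit. HSP150 was called lower with library size scaling. Capitals mark the Rlm1 core, of which HSP150 has another match 28 bases before its start.
BGL2: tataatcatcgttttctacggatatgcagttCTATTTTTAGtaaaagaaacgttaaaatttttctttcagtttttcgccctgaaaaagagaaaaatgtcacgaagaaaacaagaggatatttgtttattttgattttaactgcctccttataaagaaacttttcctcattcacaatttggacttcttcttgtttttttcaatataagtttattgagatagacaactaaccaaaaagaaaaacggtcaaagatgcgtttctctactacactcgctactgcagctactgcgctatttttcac
HSP150: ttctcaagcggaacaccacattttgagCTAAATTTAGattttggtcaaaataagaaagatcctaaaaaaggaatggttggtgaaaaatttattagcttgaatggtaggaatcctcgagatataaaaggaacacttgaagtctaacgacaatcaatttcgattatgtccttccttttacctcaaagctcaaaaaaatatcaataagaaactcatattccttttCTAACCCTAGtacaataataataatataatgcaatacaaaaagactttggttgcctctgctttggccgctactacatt

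Of the other motifs, searched on both strands, the SBF-type CNCGAAA was in 20.5% of the wall genes over the shorter window, against 13.8% of all genes, and in 46.2% against 22.0% over 500 bases. The pheromone-type TGAAACA was in 10.3% of the wall genes against 7.50% of all genes over the shorter window, and in 25.6% against 12.0% over 500 bases. The stress element AGGGG was in 12.8% of the wall genes against 21.6% of all genes, and in 23.1% against 34.1% over 500 bases. A match of letters is a description and does not show binding.

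Of the 12 genes grouped under the broad label of glucan remodelling, 5 rose (41.7%), 4 fell (33.3%) and 3 did not pass. The background was 28.7% and 29.6%. Besides BGL2, the largest rise was that of TOS1, a wall protein of uncertain function, with 994 and 1026 CPM in IAA, against 749 and 766 CPM in DMSO. TOS1 rose 1.33-fold (log2 fold change 0.42, SE 0.0409, edgeR adjusted p = 1.03e-04) with no overlap. The glucanase-like SCW4 rose 1.18-fold (edgeR adjusted p = 0.00117) and the exoglucanases EXG2 1.18-fold (0.00188) and EXG1 1.16-fold (0.0221), the last not called without DMSO replicate 2 (adjusted p = 0.0830) nor with library size scaling (adjusted p = 0.203). UTR2, which like CRH1 joins chitin to glucan, had 289 and 285 CPM in IAA, against 356 and 389 CPM in DMSO. UTR2 made the largest fall of the set, by 0.38 on the log2 scale (SE 0.0505, edgeR adjusted p = 4.20e-04).

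GAS3, of the glucanosyltransferase family that lengthens glucan chains, fell 1.24-fold (edgeR adjusted p = 6.74e-04). SUN4, which takes part in septation, fell 1.21-fold (edgeR adjusted p = 8.62e-04). SCW10, a close relative of SCW4, fell 1.09-fold (edgeR adjusted p = 0.0341), a call that was lost in 6 of 14 alternative fits. The main glucanosyltransferase gene GAS1 and its relative GAS5 did not pass, with log2 fold changes of -0.069 and 0.012. With library size scaling GAS1 was called lower (log2 fold change -0.17, edgeR adjusted p = 0.00575). Of the paralogues, SCW4 was higher and SCW10 lower, and the chitin-glucan transglycosylase UTR2 was lower while CRH1 did not pass. These pairs were not compared with each other by a test.

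Of the 5 genes of glucan synthesis, 2 rose (40.0%) and 1 fell (20.0%), against the background of 28.7% and 29.6%. GSC2 (FKS2), the alternative catalytic subunit of glucan synthase, had 272 and 298 CPM in IAA, against 230.0 and 219 CPM in DMSO. It rose 1.27-fold with no overlap (log2 fold change 0.34, SE 0.0545, edgeR adjusted p = 9.35e-04), while FKS1 did not pass. KRE6, needed to make branched beta-glucan, rose 1.23-fold (edgeR adjusted p = 0.00126). KRE1, a surface protein of the same branch, fell 1.18-fold (edgeR adjusted p = 0.00427), although not without DMSO replicate 2 (adjusted p = 0.0596), and KRE9 did not pass. FKS1 remained the higher of the synthase genes, at 307 ± 16.6 FPKM in IAA and 338 ± 3.80 FPKM in DMSO. GSC2 had 50.4 ± 3.63 FPKM in IAA and 42.6 ± 1.48 FPKM in DMSO (SD, n = 2 each). FPKM values are as deposited and scaled by gene length and library total, but the length used is not known here.

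YPS1, a GPI-anchored aspartic protease of the cell surface (a yapsin), had 252 and 280.1 CPM in IAA, against 214 and 209 CPM in DMSO. It rose 1.26-fold with no overlap (log2 fold change 0.33, SE 0.0556, edgeR adjusted p = 0.00123). Of the 6 GPI-anchored wall proteins, CWP1 and TIP1 rose (33.3%, near the background of 28.7%) and 0 fell (background 29.6%). The other 4 did not pass, ECM33 and CWP2 among them. TIP1 rose 1.13-fold (edgeR adjusted p = 0.0120), a call lost without DMSO replicate 1 (adjusted p = 0.119) and with library size scaling (adjusted p = 0.227). CWP2 missed the threshold (log2 fold change 0.16, adjusted p = 0.0679), and passed it in 5 of 14 alternative fits, among them that without IAA replicate 2 (adjusted p = 0.00198).

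Of the 7 sensor and signalling genes, SLT2 and KDX1 rose (28.6%, near the background of 28.7%) and 5 did not pass. With 0 lower, the background was 29.6%. The sensors WSC2, WSC3 and MID2 and the exchange factor gene ROM2 had log2 fold changes between -0.043 and 0.15, with edgeR adjusted p between 0.0728 and 0.968. MID2 is uncertain, since its counts held decimals, as shared reads give, and it overlaps YLR331C on the opposite strand. It was the only member with either feature. Among chitin synthase genes CHS3 rose, and CHS2, which lays down the septum, had a log2 fold change of 0.0013. CHS1, a repair enzyme of the daughter wall, had 359 and 439 CPM in IAA, against 394 and 389 CPM in DMSO. The IAA libraries thus lay on both sides of DMSO, and CHS1 was called higher without IAA replicate 1 (log2 fold change 0.17, adjusted p = 0.00559) and lower without IAA replicate 2 (log2 fold change -0.11, adjusted p = 0.0394).

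IAA replicate 2 was above IAA replicate 1 in 33 of the 39 wall genes (84.6%), against 49.4% of all tested genes with reads in every library compared. The median log2 difference was 0.080 in the wall genes and -0.0014 in all genes. In DMSO, replicate 2 was above replicate 1 in 24 wall genes (61.5%), against 48.5% of all tested genes. The largest gaps between the IAA libraries were those of CRH1 (26.5%), SLT2 (26.3%), CHS1 (22.1%), CWP1 (19.1%), PST1 (18.3%) and RLM1 (17.8%). These genes were named after their values were seen, and no test was made of this pattern.

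Wall genes were highly expressed, and together took 1.69% and 1.82% of the counts in IAA, against 1.78% and 1.83% in DMSO. Their median level was 189 and 198 FPKM in IAA, against 224 and 221 FPKM in DMSO, while the median of all tested genes was 56.6 and 58.0 FPKM in IAA, against 60.7 and 61.4 FPKM in DMSO. SED1 led with 3765 ± 390 FPKM in IAA and 4008 ± 183 FPKM in DMSO (SD, n = 2 each), rank 37 of all tested genes. By the deposited FPKM, CWP2 followed with 2269 ± 72.1 FPKM in IAA and 2059 ± 171 FPKM in DMSO. HSP150 came next with 1707 ± 47.0 FPKM in IAA and 1884 ± 86.6 FPKM in DMSO. Divided by coding length (279 bases for CWP2 and 1242 for HSP150), the counts place CWP2 below HSP150 in every library. The length behind the deposited FPKM is not known here, so the place of CWP2 is uncertain. The SD ranges of CWP2 and HSP150 were apart in IAA and overlapped in DMSO. PIR3 was lowest, with 8.93 ± 0.601 FPKM in IAA and 4.52 ± 0.106 FPKM in DMSO, below KDX1 with 20.3 ± 1.63 FPKM in IAA and 13.6 ± 0.141 FPKM in DMSO. Among the 4 PIR members the order in both groups was HSP150, CIS3, PIR1 and PIR3. Of the 5 targets that rose at least 1.5-fold, BGL2 was among the 250 most expressed tested genes, at rank 235, and the other 4 lay between ranks 1834 and 5556.

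**Figure D4:**
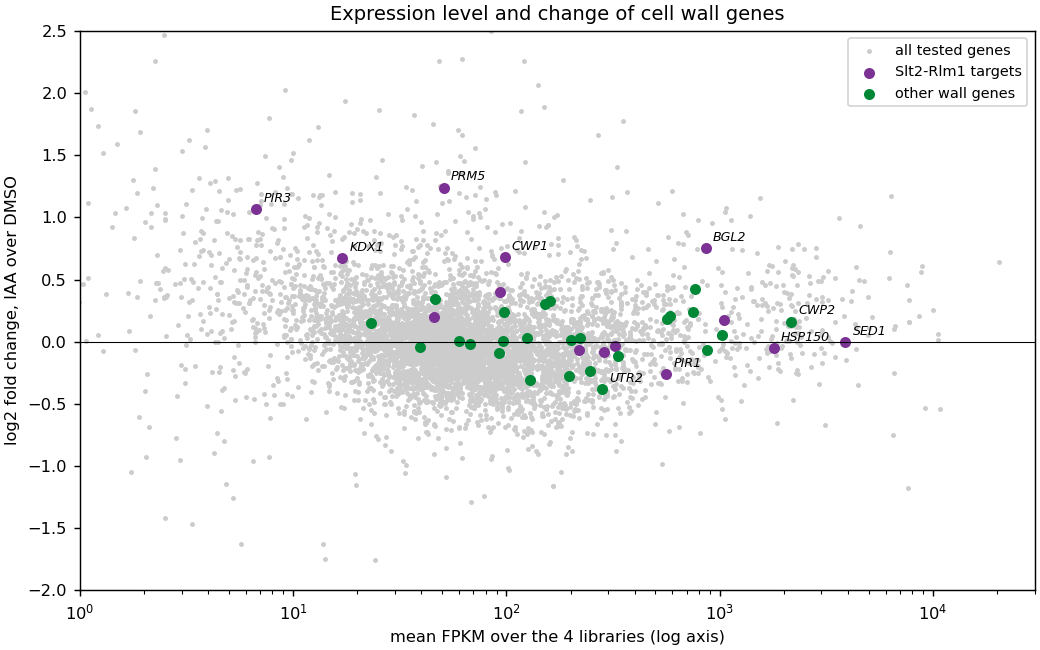
Mean FPKM over the 4 libraries (log axis) against the log2 fold change of IAA over DMSO for Slt2-Rlm1 targets (purple), other wall genes (green) and all tested genes (grey; some lie outside the drawn range). BGL2 stands apart as a highly expressed gene with a log2 fold change of 0.75, and the most abundant, SED1, lies at -0.0053.

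Several wall genes are neighbours in the genome. CWP2 and CWP1 follow each other on the same strand of chromosome XI, 1600 bases apart, with log2 fold changes of 0.16 and 0.68. HSP150 and CIS3 converge on chromosome X, 574 bases apart, with -0.053 and 0.17, and PIR5, another PIR gene, lies on the other side of HSP150 with 0.34 (edgeR adjusted p = 0.0916). KDX1 lies 4007 bases beyond PIR3, with 1 gene between, and both rose. On chromosome XII the yapsin gene YPS3 follows YPS1 on the same strand 523 bases on, with a log2 fold change of 0.17 (edgeR adjusted p = 0.0677) against 0.33 for YPS1.

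A further 79 genes of the pathway and the wall, listed by function, were all tested. Of these 27 rose and 18 fell (34.2% and 22.8%), against the background of 28.7% and 29.6%, and their median log2 fold change was 0.017. With library size scaling 19 rose and 29 fell, against a background of 19.5% and 43.1% under that scaling. Of the 11 genes of the cascade above SLT2, 3 rose (27.3%) and 5 fell (45.5%) under TMM scaling, against the background of 28.7% and 29.6%. WSC4, a sensor-like gene, had 31.9 and 29.6 CPM in IAA, against 52.6 and 56.7 CPM in DMSO, a fall of 1.78-fold (edgeR adjusted p = 4.35e-05). MTL1, a relative of MID2, had 42.7 and 59.3 CPM in IAA, against 29.7 and 37.2 CPM in DMSO, a rise of 1.53-fold (edgeR adjusted p = 0.00888) that DESeq2 did not call (adjusted p = 0.0570). The sensor gene WSC1 fell 1.17-fold, RHO1 and PKC1 1.18-fold each and BCK1 1.09-fold, while the kinase gene MKK1 rose 1.12-fold and the exchange factor gene ROM1 1.27-fold (edgeR adjusted p between 0.00107 and 0.0406). The calls of BCK1 and MKK1 were lost in 6 and 4 of 14 alternative fits. These genes, other than WSC4 and MTL1, were named after their values were seen.

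Of 8 negative regulators, 3 rose (37.5%, near the background of 28.7%) and 0 fell (background 29.6%). BAG7 rose by 1.42-fold, and the phosphatase genes SDP1 by 1.27-fold and PTP2 by 1.2-fold. SDP1 was not called when any 1 of the 4 libraries was left out (adjusted p between 0.0608 and 0.209), and PTP2 not without IAA replicate 2 (adjusted p = 0.0662). Both SBF genes fell, SWI6 1.29-fold (edgeR adjusted p = 2.26e-04) and SWI4 slightly (log2 fold change -0.14, edgeR adjusted p = 0.0372), the second in 8 of 14 alternative fits. Of 10 chitin branch genes 2 rose (20.0%) and 3 fell (30.0%), against the background of 28.7% and 29.6%. PCM1 and GFA1, which make the sugar precursor of chitin, rose 1.39-fold and 1.19-fold, whereas GNA1, of the same route, fell 1.33-fold. The GFA1 counts held decimals too, so its value is uncertain. These genes too were named after their values were seen.

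Of 19 further glucan genes 8 rose and 5 fell, and of 25 further wall protein genes 10 rose and 3 fell, against the background of 28.7% and 29.6%. GAS4 (1.65-fold), GAS2 (1.57-fold) and SPS22 (1.78-fold), all known from spore wall formation, rose. The sporulation genes SPS2 (1.39-fold, edgeR adjusted p = 0.0131) and SPR1 (1.22-fold, edgeR adjusted p = 0.0114) rose too, with each call lost in 4 alternative fits. CRR1, known from spore wall formation as well, fell 1.14-fold (edgeR adjusted p = 0.0329), a call lost in 5 of 14 alternative fits. SPS2, SPR1 and CRR1 were named after their values were seen. Rises were also made by the anaerobic mannoprotein gene DAN1 (1.89-fold), the yapsin gene YPS6 (1.66-fold) and UTH1 (1.51-fold). The anaerobic mannoprotein genes TIR1, TIR2, TIR3 and TIR4 were also named after their values were seen. TIR4 rose 1.31-fold (edgeR adjusted p = 0.00720), a call lost in 2 of 14 alternative fits, and TIR1, TIR2 and TIR3 did not pass. The counts of YPS6 held decimals like those of MID2, so its value is uncertain. DAN1 had 1.89 and 1.93 CPM in IAA, against 1.37 and 0.664 CPM in DMSO, and was not called by DESeq2 (adjusted p = 0.0814) or without DMSO replicate 2 (log2 fold change 0.48, adjusted p = 0.245). SPS22 lay at most at 2.85 CPM and was not called without DMSO replicate 2 (adjusted p = 0.0521). UTH1, a SUN family gene, was abundant, with 1056 and 1023 CPM in IAA, against 672 and 703 CPM in DMSO. SVS1, a wall protein gene, fell 1.58-fold, with 96.3 and 134 CPM in IAA, against 185 and 179 CPM in DMSO (edgeR adjusted p = 0.00216).

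Of 7 genes known for daughter cell separation (SUN4, CTS1, SCW11, DSE1, DSE2, DSE4 and EGT2), gathered after their values were seen, 6 fell and 0 rose, against a background of 29.6% lower (43.1% with library size scaling), and the median was -0.28 on the log2 fold change scale. EGT2 had 617 and 685 CPM in IAA, against 955 and 936 CPM in DMSO, a fall of 1.45-fold (edgeR adjusted p = 1.13e-04). The chitinase gene CTS1 had 1109 and 1236 CPM in IAA, against 1472 and 1443 CPM in DMSO, a fall of 1.24-fold (edgeR adjusted p = 0.00146). DSE2 fell 1.19-fold (edgeR adjusted p = 0.0442), a call lost in 6 of 14 alternative fits. Cell cycle position was not measured, and its part in these changes was not tested.

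**Figure D5:**
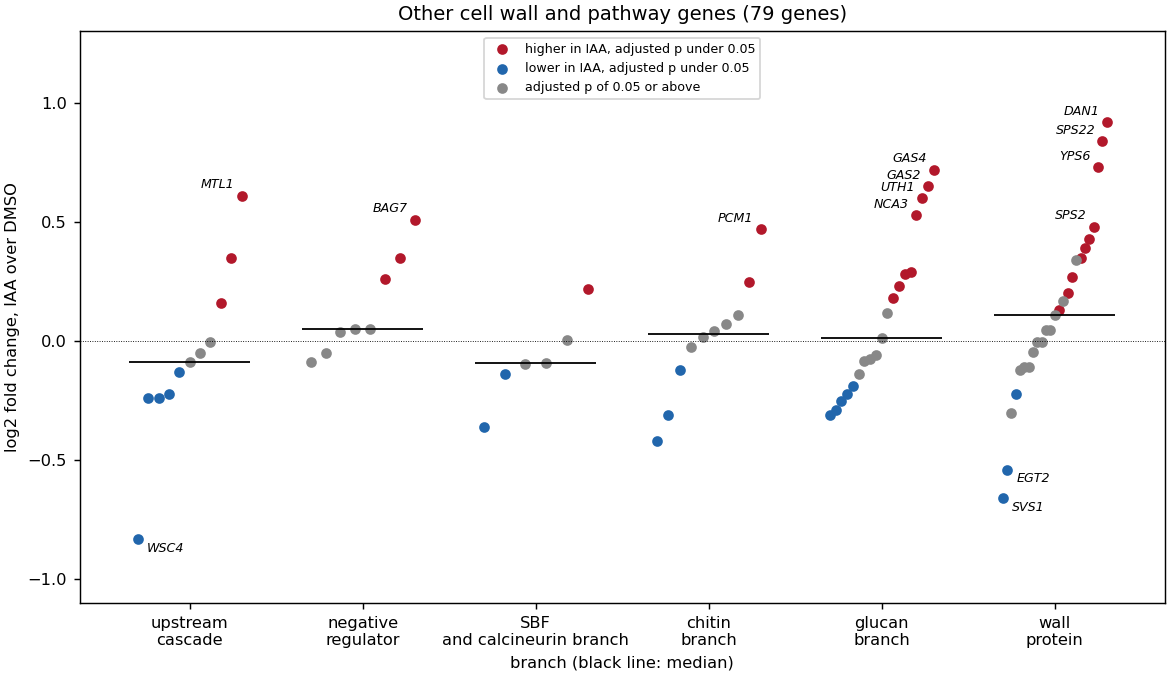
Log2 fold change of IAA over DMSO for 79 further wall and pathway genes by branch, coloured by call at an adjusted p under 0.05, with a black line at each branch's median. The outermost points are WSC4 at -0.83 and DAN1 at 0.92, and branch medians lie between -0.092 and 0.11.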

How the data were processed

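The authors deposited 1 table of expected counts per gene, which need not be whole, and 1 table of FPKM values, scaled by gene length and library total. The length and the total used for FPKM are not known here. The submitters' processing notes name build R64 and, with no role or order, RSEM 1.3.3, STAR 2.7.10a, DESeq2, SAMtools 1.10, Trimmomatic and FastQC 0.11.9. RNA was total RNA made into libraries with a directional kit, per the labels' protocols; strand use in counting is not stated in those protocols. The deposited FPKM table had 3 emptied lines, none of them a member.

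Expected counts were rounded and tested in R 4.3.3 with edgeR 4.0.16 (filterByExpr, TMM, glmQLFit, glmQLFTest, IAA over DMSO, no covariate), with Benjamini-Hochberg adjustment over 5799 genes. Levels are TMM-scaled CPM; the SE is the log2 fold change over the root of F. On simulated counts for this comparison (5790 genes), 70% of genes changed 1.2-fold and 96% of those changed 1.5-fold were recovered, with 5 false calls among 188. The simulation gave every gene the same dispersion and changed only 50 well-counted genes at each fold. In the real data 3380 genes were called and the groups differed in replicate noise, so these rates need not hold there. P-values set each group difference against a spread between libraries that edgeR moderates across genes. Having 2 libraries a group limits precision. Replicate libraries differed beyond counting noise (chi-square over degrees of freedom 19.3 in IAA and 6.34 in DMSO). Alternatives were other scalings and filters, DESeq2 1.42.0, limma 3.58.1 (voom, and log2 of FPKM plus 1 or 0.1), stricter thresholds, each library left out and the replicate number as a block.

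Names, positions and promoters came from RefSeq R64, in which 6456 of 6459 row names were found; its models start at the coding start (ATG in 99.9% of 6002 genes). Members, target split, wider list and motifs were chosen with earlier results of these data known. Values in every library are given for each target and for other members called at 1.25-fold or more, and wider genes called at 1.5-fold or more are named; others are said to be named after their values were seen.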

Additional observations from a re-analysis of the deposited data

How the results depend on the processing

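All 22 wall genes called kept their sign in each of the 14 alternative fits that tested them, and 15 stayed past 0.05 in all of these. PIR3 was left out by the filter at a mean of 10 CPM. With library size scaling, 10 wall genes, 3 targets and 29 wider genes were lower, and medians were -0.073 (wall genes) and 0.085 (targets); the median log2 fold change of other wall members was -0.074. On log2(FPKM + 1) and log2(FPKM + 0.1), 5 targets were higher and 2 lower, 16 wider genes were higher, and medians were -0.049, 0.10 and -0.076 or -0.077. With upper quartile scaling, medians were 0.11, 0.26 and 0.10, and 19 wall genes rose and 5 fell, against a background of 37.6% and 21.3%. At 1.5-fold or more, counts of higher and lower genes were 399 and 160 (all), 5 and 0 (wall genes), 5 and 0 (targets), 0 and 0 (others) and 7 and 2 (wider).

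Of the 17 genes not called, 15 changed sign in some alternative; the cause was not tested. With library size scaling these were CHS1 (-0.074), CHS2 (-0.10), GAS5 (-0.092), ECM33 (-0.054), KRE9 (-0.073) and MID2 (-0.10); on log2(FPKM + 1) they were -0.076, -0.10, -0.079, -0.041, -0.049 and -0.086, and on log2(FPKM + 0.1) -0.077, -0.10, -0.080, -0.041, -0.049 and -0.087. With upper quartile scaling they were HSP150 (0.023), FKS1 (0.038), GAS1 (0.0069), SED1 (0.069), PST1 (0.0063), WSC2 (0.054) and ROM2 (0.032). SED1 was 0.014 with the 10 CPM filter, and CHS2 -0.0010 with limma-voom.

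With each library left out in turn, 4 to 10 wall genes, 1 to 3 targets and 3 to 7 others were lower, and the wall gene median lay between 0.017 and 0.085. Log2 fold changes ranged from -0.21 to 0.022 (RLM1), -0.078 to 0.0084 (FKS1), -0.26 to 0.073 (CRH1), -0.11 to 0.17 (CHS1), -0.090 to 0.095 (CHS2), -0.014 to 0.040 (GAS5), -0.094 to 0.085 (SED1), -0.19 to 0.047 (PST1), -0.090 to 0.050 (WSC2) and -0.071 to 0.080 (MID2). These fits take the spread of the lone library's group from the other group.

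The labels' replicate numbers name no shared source, so whether same-numbered libraries share one is not known. Deviations of same-numbered libraries from their group means correlated at 0.239 (5799 genes, 2 pairs). HIS3, site of the receptor cassette, had 989 and 444 CPM in IAA, against 777 and 362 CPM in DMSO, higher in replicate 1 of both groups. With the replicate block, 17 wall genes rose and 6 fell (CHS2 -7.49e-04). No wall gene lost its call under it and CWP2 gained one (adjusted p = 0.0335). At 26046702 to 33625232 counts per library, depth limits mainly the lowest genes, such as PIR3, SPS22 and DAN1.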
